A study of Homo sapiens with 12 samples.

Results

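The genes described here are PTBP1 and BCL2L12, which the study tied to the death of cells that lose RNA polymerase II, and the PTBP1 paralogs PTBP2 and PTBP3. They were taken by name as 4 of the 22379 gene rows of the deposited table, and all 4 were detected in each of the 12 libraries. The libraries hold polyadenylated RNA of U2OS, a human osteosarcoma line, in 6 groups of 2 replicates. Every culture had been transfected for a short time with a plasmid carrying Cas9, puromycin resistance and 1 guide RNA, and was used as a selected pool, not as clones. The guide was nontargeting (NONT), or aimed at NUP93, a scaffold protein of the nuclear pore (NUP93-KO), or at EXOSC5, a subunit of the RNA exosome (EXOSC5-KO). Each genotype was profiled without drug (DMSO, called untreated here) and after 8 h of 1 μM triptolide, which blocks the XPB subunit of TFIIH and so stops initiation by RNA polymerase II. Nothing in the labels says that the 2 libraries of a group came from separate cultures, so p-values measure the spread between these libraries, which may be technical.

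PTBP1 is a polypyrimidine tract-binding protein, an RNA-binding protein that represses exons, moves between nucleus and cytoplasm and acts on some internal ribosome entry sites. PTBP2 is its paralog best known from neurons, where it takes the place of PTBP1 as cells differentiate, and PTBP3 is a further paralog first described in blood cells. BCL2L12 is an unusual member of the BCL2 family, whose other members set the permeability of the mitochondrial outer membrane in apoptosis. Once initiation is blocked, an mRNA is no longer replaced, so what is left of it reflects its decay. The comparisons ask how much mRNA for a proposed death signal remained after the drug, and whether the pore and exosome knockouts altered it.

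The 3 guides are shown because they define the genotypes, with the NGG motif next to the target in capitals and with the site of the only perfect match in GRCh38:
NUP93: gaacttacaggagatccagcAGG
EXOSC5: gaagttcttaccttgcaggaAGG
NONT: cggcggtcacgaactccagc
The NUP93 guide matched chr16:56748340-56748359 on the plus strand and lies wholly in exon 2 of the gene. The EXOSC5 guide matched chr19:41397170-41397189 on the plus strand, with 9 of its bases in exon 1 and the rest in the adjoining intron. The NONT guide had 0 perfect matches. Transcripts cut by Cas9 can still be counted, so the mRNA of a target is a weak check. NUP93 mRNA in untreated libraries was 1753 and 2489 in NONT and 1395 and 1432 in NUP93-KO cells. EXOSC5 mRNA was 299 and 481 in NONT and 215.9 and 148 in EXOSC5-KO cells. Both targets lay below both NONT libraries in their own knockout, and neither difference passed the test over all genes in untreated cells (limma, adjusted p = 0.926 for NUP93 and 0.151 for EXOSC5). How many tested genes lay so was not computed, and 63.8% had a difference below 0 in untreated NUP93-KO cells and 40.5% in EXOSC5-KO cells. With triptolide, NUP93 mRNA in NUP93-KO cells (801 and 1019) overlapped NONT (1007 and 899) and did not pass (limma, adjusted p = 0.767). EXOSC5 mRNA in EXOSC5-KO cells (75.2 and 102) lay below NONT (266 and 208) and passed (limma, adjusted p = 0.00302). As lower there, 27 of 13811 tested genes passed.

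Values are on the spike-in scale of the deposited table, where synthetic ERCC RNAs added per counted cell set the scale of each library, so a value follows mRNA per counted cell and has no unit of its own. On this scale fewer cells than counted and less RNA per cell cannot be told apart. Reads were estimated by taking the lowest ERCC values of each library, 2 to 16 of them, as 1 read. Approximate depth on this estimate was 8.54 M to 11.9 M reads per library, and the read numbers of genes rest on it too. PTBP2 rested on the fewest reads, 152 in its thinnest library, which alone gives a counting error of 8.12%. The lowest read numbers were 288 for BCL2L12, 419 for PTBP3 and 3739 for PTBP1. These errors cover counting only. The 6 mesenchymal and bone markers examined all had an untreated mean of at least 10, from COL1A2 at 10.2 to 42.0 up to VIM at 45686 to 66974. Of 3 epithelial markers, EPCAM at 16.8 to 47.6 and CDH1 at 32.2 to 69.7 also reached that mean, and KRT20 was at 0. The 3 blood markers summed to at most 4.70 in an untreated library. The neuronal markers were not absent from this line. SYP lay at 401 to 910 and RBFOX3 at 128 to 370 in untreated libraries, and their part in the level of PTBP2 was not tested.

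PTBP1 (ENSG00000011304, GRCh38 chr19:797075-812327, plus strand, 15 exons) had the highest values of the 4. Its values in untreated cells were 6502 and 10615 in NONT, 7141 and 7177 in NUP93-KO cells, and 8232 and 7352 in EXOSC5-KO cells. After triptolide they were 3109 and 2482 in NONT, 3469 and 3690 in NUP93-KO cells, and 3821 and 3880 in EXOSC5-KO cells. The treated libraries of each genotype lay below the untreated ones without overlap. PTBP1 fell by 1.58 ± 0.21 (SE) on the log2 scale in NONT, where 32.7% of it was left, or 23.4% to 47.8% when each treated library is set against each untreated one (limma, adjusted p = 4.27e-06). It fell by 1.00 ± 0.21 in NUP93-KO cells and by 1.01 ± 0.21 in EXOSC5-KO cells (SE; limma, adjusted p = 0.000752 and 0.000586), with 50% and 49.4% left.

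PTBP2 (ENSG00000117569, chr1:96721665-96823738, plus strand, 14 exons) had the lowest values. Its untreated values were 199 and 312 in NONT, 186 and 190.3 in NUP93-KO cells, and 325 and 386 in EXOSC5-KO cells. The triptolide values were 99.9 and 103 in NONT, 141 and 150 in NUP93-KO cells, and 190.2 and 195 in EXOSC5-KO cells. Both EXOSC5-KO libraries lay above all libraries of the other genotypes with the same treatment, in untreated and in treated cells alike. The share of tested genes with this order was not computed. Under triptolide both EXOSC5-KO libraries lay above both NONT libraries for 75.1% of tested genes. PTBP2 fell by 1.29 ± 0.26 on the log2 scale in NONT and fell by 0.88 ± 0.26 in EXOSC5-KO cells (SE; limma, adjusted p = 0.000259 and 0.00798). In NUP93-KO the change was −0.37 ± 0.26 (SE), with an interval of −0.93 to 0.18 (95%), and did not pass (limma, adjusted p = 0.246), although its libraries did not overlap. What was left came to 39.7% in NONT, 77.2% in NUP93-KO cells and 54.1% in EXOSC5-KO cells. The call in EXOSC5-KO cells was lost without untreated replicate 2 of that genotype (−0.75, limma, adjusted p = 0.0737).

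PTBP3 (ENSG00000119314, chr9:112217716-112333664, minus strand, 14 exons) had untreated values of 572 and 765 in NONT, 541 and 580.3 in NUP93-KO cells, and 801 and 735 in EXOSC5-KO cells. Under triptolide it had 362 and 267 in NONT, 365 and 437 in NUP93-KO cells, and 422 and 453 in EXOSC5-KO cells. No treated value reached an untreated value of its own genotype. PTBP3 fell by 1.09 ± 0.22 in NONT and by 0.81 ± 0.22 in EXOSC5-KO cells on the log2 scale (SE; limma, adjusted p = 0.000249 and 0.00432). The NUP93-KO change was −0.49 ± 0.22 (SE) and missed the threshold (limma, adjusted p = 0.0720). It passed when either untreated NONT library was left out, which changes the estimate of the spread and not this difference (adjusted p = 0.0285 without replicate 1 and 0.0284 without replicate 2). The share left was 47.0% in NONT, 71.5% in NUP93-KO cells and 56.9% in EXOSC5-KO cells.

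BCL2L12 (ENSG00000126453, chr19:49665142-49673916, plus strand, 7 exons) had untreated values of 592 and 771 in NONT, 593 and 647 in NUP93-KO cells, and 468 and 421 in EXOSC5-KO cells. Its triptolide values were 353 and 275 in NONT, 486 and 502 in NUP93-KO cells, and 310.1 and 380.0 in EXOSC5-KO cells. Unlike the 3 PTBP genes, BCL2L12 was lowest in EXOSC5-KO cells before the drug, below every other untreated library. The share of tested genes with that order was not computed. BCL2L12 fell by 1.11 ± 0.22 on the log2 scale in NONT (SE; limma, adjusted p = 0.000186), where 46.1% was left. In the knockouts its changes of −0.33 ± 0.22 in NUP93-KO cells and −0.37 ± 0.22 in EXOSC5-KO cells did not pass (SE; limma, adjusted p = 0.219 and 0.141), and 79.6% and 77.6% were left. The intervals of these changes were −0.79 to 0.13 and −0.83 to 0.090 (95%), and whether they differ from the change in NONT is tested with the difference in response. Scaled to equal mitochondrial mRNA, BCL2L12 passed as lower in NUP93-KO and EXOSC5-KO cells (−0.63 and −0.47, limma, adjusted p = 0.00682 and 0.0331). On that scale 10568 and 10378 of 13811 tested genes did so. By the median of ratios and with equal totals both changes were positive.

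**Figure D1:**
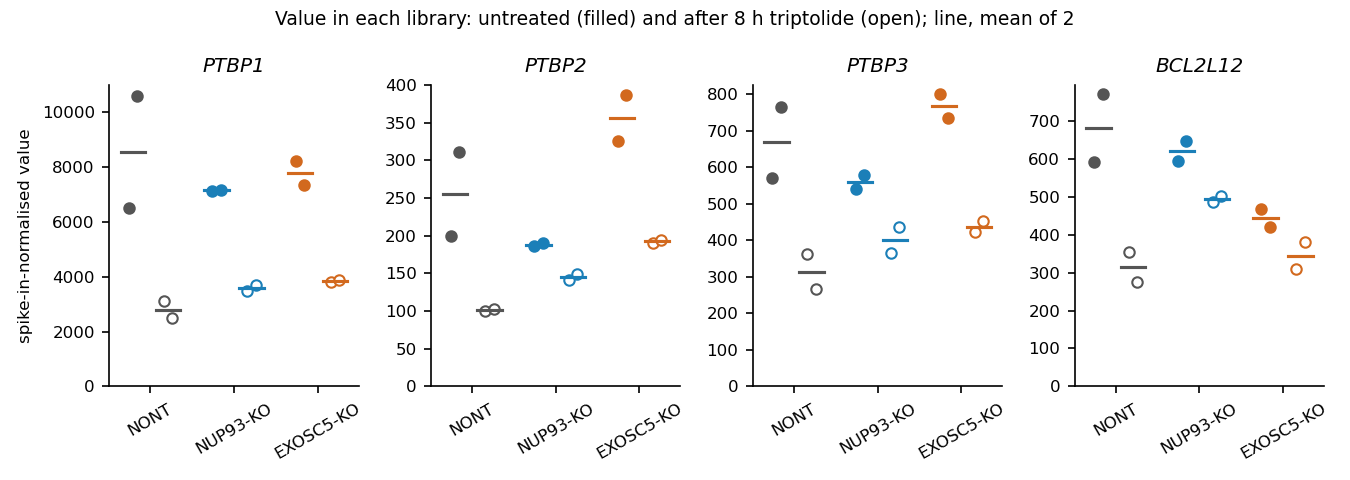
Spike-in-normalised value (linear axes from 0) of each gene in the 12 libraries by genotype, with filled points for untreated cells, open points for triptolide and lines for the mean of 2 libraries. Open points lie below filled points of their genotype for all 4 genes, and the 2 untreated NONT libraries lie far apart for PTBP1 (6502 and 10615).

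In NONT, 4 of the 4 genes passed as lower after triptolide, where 90.0% of the 13811 tested genes did, and treated and untreated libraries of a gene did not overlap for 94.8% of tested genes. In NUP93-KO 1 of 4 passed, PTBP1, against a background of 55.1% called and 79.1% without overlap. In EXOSC5-KO 3 of 4 passed, all but BCL2L12, against 64.3% and 88.0%. A drop under this drug was therefore the rule for tested genes on the spike-in scale, with 12427 lower and 7 higher in NONT, whereas the median of ratios gave 4185 lower and 3752 higher. The median of the 4 log2 fold changes was −1.20 in NONT, −0.43 in NUP93-KO cells and −0.84 in EXOSC5-KO cells, beside −1.62, −0.92 and −1.08 over all tested genes.

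PTBP1 behaved as the middle of the transcriptome did. It kept 32.7%, 50% and 49.4% for the NONT, NUP93 and EXOSC5 guides, where the median tested gene kept 31.4%, 52.5% and 47.2%. The share of tested genes that lost more than PTBP1 was 52.0%, 47.7% and 52.6%. For BCL2L12 it was 74.5%, 76.5% and 85.2%, the highest of the 4 in both knockouts. PTBP3 stood above 76.0%, 68.3% and 61.0% of tested genes and PTBP2 above 63.6%, 74.1% and 57.8%. The contrast with MCL1, a short-lived antiapoptotic mRNA, was wide. MCL1 fell from 2481 and 3709 to 15.0 and 27.5 in NONT, which left 0.685%, and 1.44% and 1.28% were left in the NUP93 and EXOSC5 knockouts (limma, adjusted p = 5.39e-11, 1.30e-09 and 6.25e-10).

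**Figure D2:**
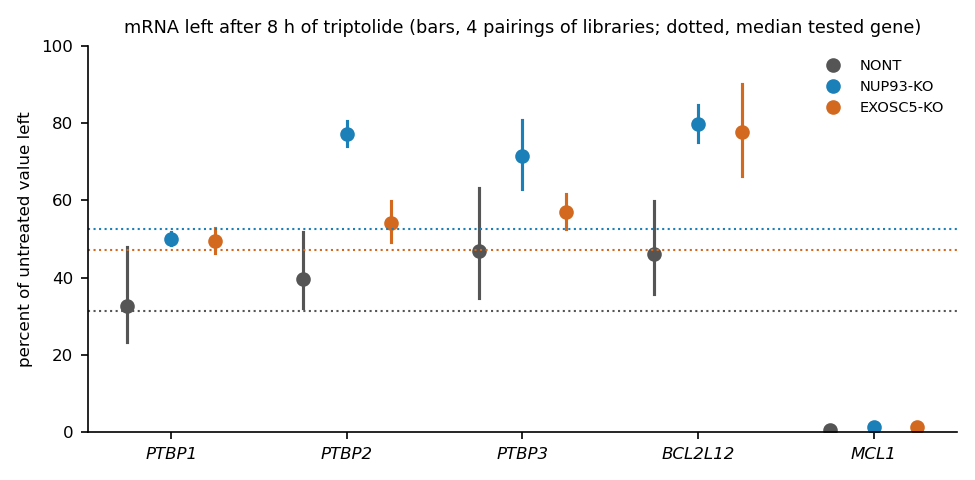
Percent of the untreated mean left after 8 h of triptolide (linear axis from 0) for the 4 genes and MCL1, by genotype. Bars span the 4 pairings of libraries and dotted lines mark the median tested gene of each genotype (31.4%, 52.5% and 47.2%); PTBP1 sits near its dotted line, BCL2L12 above it in each genotype, and MCL1 near 0.

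**Figure D3:**
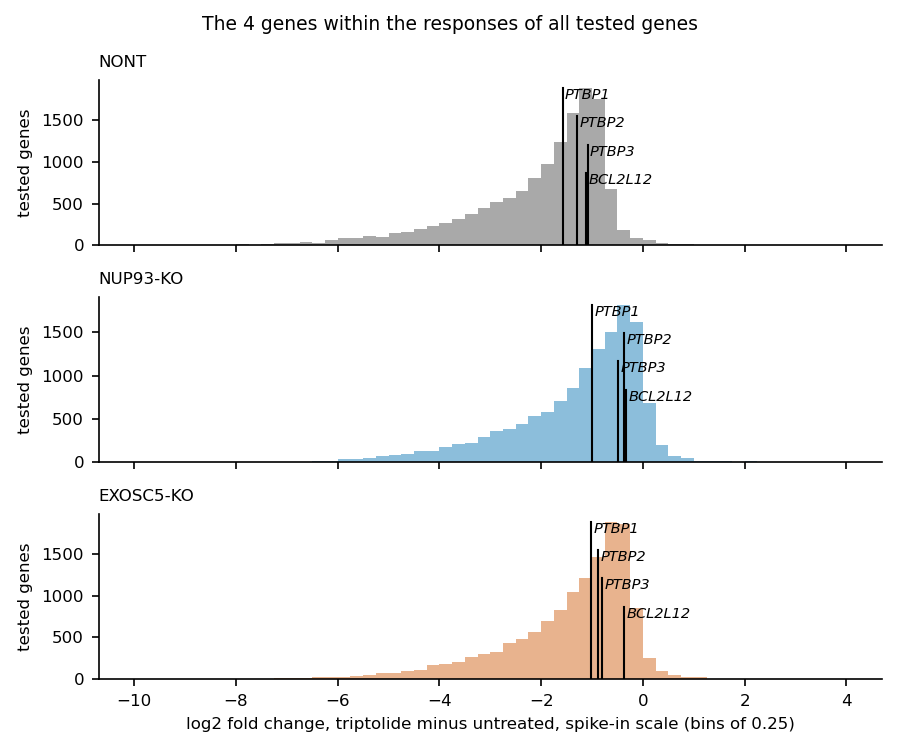
Number of tested genes (vertical axis) by log2 fold change of triptolide against untreated (bins of 0.25), 1 panel per genotype, with a black line at each of the 4 genes. All 4 lines fall in the tall part of each distribution, and a long tail reaches to the left of them.

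Over the 3 genotypes, the mean treated-minus-untreated difference was −1.20 for PTBP1, −0.85 for PTBP2, −0.80 for PTBP3 and −0.60 for BCL2L12 on the log2 scale. Each was negative in 3 of 3 genotypes, and each had p = 0.00926 in an exact two-sided permutation test within genotype over all arrangements, the smallest p this design allows (adjusted p = 0.00926 over 8 tests). A single genotype of 2 against 2 libraries cannot go below 0.33 in such a test. On the spike-in scale, the share of tested genes that reach 0.00926 in the exact test was not computed. Taken 1 genotype at a time, a drop without overlap was common. It was seen for 94.8% of tested genes in NONT, 79.1% in NUP93-KO cells and 88.0% in EXOSC5-KO cells. Relative to the median level of tested genes in the same library, the differences were positive, 0.50 for PTBP1, 0.85 for PTBP2, 0.90 for PTBP3 and 1.09 for BCL2L12, with the same exact permutation p. The median level of a library changed by −2.17 in NONT, −1.38 with the NUP93 guide and −1.54 with the EXOSC5 guide, more than the median gene did, so these positive values are larger than the distance of each gene from the median gene. How many tested genes are positive on this measure, or reach the same p, was not computed. With the libraries scaled by the median of ratios, which sets the median gene near no change, PTBP1 had a mean of 0.014 and did not pass (exact permutation, adjusted p = 0.731), while PTBP2 at 0.36, PTBP3 at 0.41 and BCL2L12 at 0.61 did (adjusted p = 0.0106 for each). With equal totals, where a value is a share of the mRNA that was left, BCL2L12 rose by 0.30 and PTBP1 fell by 0.30 (exact permutation, adjusted p = 0.0123 for each), while PTBP2 at 0.050 and PTBP3 at 0.10 did not pass (adjusted p = 0.556 and 0.127). For the median of ratios and for equal totals, the share of tested genes that pass this permutation test was not computed. The sign of a response thus depends on the scale. Over the genotypes the 4 mRNAs fell per counted cell and rose relative to the library median level. By the median of ratios 3 of them passed as higher, and as a share of the total 1 did.

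Ratios within a library do not depend on the spike-in or on the cell count. The 3 ratios to PTBP1 share that gene, so they are not independent. PTBP1 lay near the middle of tested genes, of which 52.0% in NONT, 47.7% in NUP93-KO cells and 52.6% in EXOSC5-KO cells lost more. A rise against PTBP1 is therefore common, and the share of tested genes that pass with such a rise was not computed. BCL2L12 amounted to 9.10% and 7.26% of PTBP1 in untreated NONT and to 11.4% and 11.1% after the drug. In NUP93-KO the same ratio went from 8.31% and 9.02% to 14.0% and 13.6%, and in EXOSC5-KO cells from 5.69% and 5.73% to 8.12% and 9.79%. The treated libraries lay above the untreated ones in each genotype. The ratio of BCL2L12 to PTBP1 rose by 0.60 on the log2 scale over the 3 genotypes (exact permutation, p = 0.00926, adjusted p = 0.0139 over 3 ratios, higher in 3 of 3 genotypes).

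PTBP3 came to 8.80% and 7.21% of PTBP1 in untreated NONT, 7.58% and 8.08% in NUP93-KO cells, and 9.72% and 10.00% in EXOSC5-KO cells. After triptolide it came to 11.6% and 10.7%, 10.5% and 11.8%, and 11% and 11.7% in the same order. This ratio rose by 0.40 (exact permutation, p = 0.00926, adjusted p = 0.0139), again without overlap in any genotype. PTBP2 came to 3.07% and 2.94% of PTBP1 in untreated NONT, 2.61% and 2.65% in NUP93-KO cells, and 3.95% and 5.25% in EXOSC5-KO cells. After triptolide it came to 3.21% and 4.16%, 4.06% and 4.06%, and 4.98% and 5.02%, so the groups overlapped in EXOSC5-KO cells. The PTBP2 ratio rose by 0.35 (exact permutation, adjusted p = 0.0370), a call that was lost without any of 5 single libraries: either untreated NONT library (0.36 without replicate 1 and 0.34 without replicate 2, adjusted exact p = 0.0556 each), untreated EXOSC5-KO replicate 1 (0.28, 0.0833), or treated EXOSC5-KO replicate 1 or 2 (0.35 each, 0.0556). By group means, PTBP1 kept the smallest share of its untreated value of the 4 genes in each genotype, with a share close to that of PTBP2 in EXOSC5-KO cells.

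**Figure D4:**
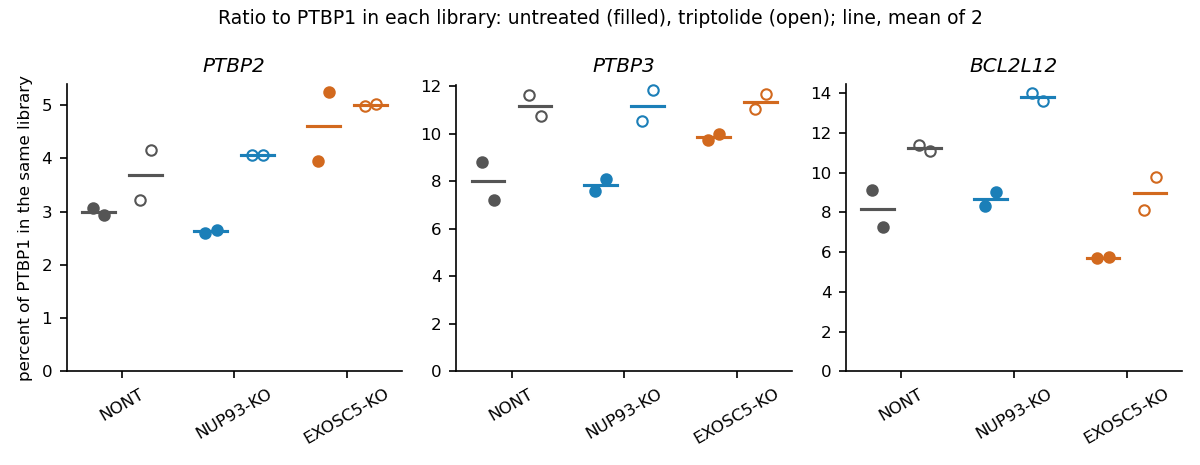
PTBP2, PTBP3 and BCL2L12 as a percent of PTBP1 in the same library (linear axes from 0), by genotype, with filled points for untreated cells, open points for triptolide and lines for the mean of 2 libraries. Open points lie above filled points except for PTBP2 in EXOSC5-KO cells, and BCL2L12 is lowest in EXOSC5-KO cells both without and with the drug.

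Before the drug, none of the 4 genes passed in NUP93-KO against NONT. The differences were −0.21 for PTBP1, −0.40 for PTBP2, −0.24 for PTBP3 and −0.12 for BCL2L12 on the log2 scale, 0 of 4 passed (limma, adjusted p = 1 for each, and 0 at an unadjusted p under 0.05), and 0.0217% of tested genes passed in either direction. The intervals of the 4 genes (95%) reached down to −0.96, for PTBP2, and up to 0.34, for BCL2L12. Changes inside the interval of a gene were not excluded for that gene. Untreated NONT replicate 2 held the higher NONT value for each of the 4 genes. Without it the differences were 0.14 for PTBP1, −0.083 for PTBP2, −0.029 for PTBP3 and 0.067 for BCL2L12, and without replicate 1 instead they were −0.57, −0.72, −0.45 and −0.31.

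In EXOSC5-KO without the drug, the genes parted. The differences from NONT were −0.095 for PTBP1, 0.51 ± 0.26 (SE) for PTBP2, 0.21 for PTBP3 and −0.60 ± 0.22 (SE) for BCL2L12. On the spike-in scale 0 of 4 passed, where 0.521% of tested genes did in either direction. BCL2L12 had an unadjusted p of 0.0135 and an adjusted p of 0.391, and PTBP2 had 0.0711 and 0.660 (limma). On the 3 other scales tried, BCL2L12 passed as lower in EXOSC5-KO cells: −0.70 by the median of ratios, −0.63 with equal totals and −0.98 with equal mitochondrial mRNA (limma, adjusted p = 0.00551, 0.0116 and 0.0120). The number of tested genes that passed in this contrast also rose on those scales, from 72 to 787, 674 and 795.

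The ratio of BCL2L12 to PTBP2 set the EXOSC5-KO libraries apart without any scale. It was 1.44 and 1.09 in untreated and 1.63 and 1.95 in treated EXOSC5-KO cells. In NONT it was 2.97 and 2.47 without and 3.54 and 2.67 with the drug, and in NUP93-KO cells it was 3.19 and 3.40 without and 3.45 and 3.35 with it. All 4 EXOSC5-KO libraries thus lay below the 8 others. The pair was chosen after the values were seen, and it holds the highest and the lowest untreated EXOSC5-KO difference of the 4 genes. The share of other gene pairs that part these libraries in this way was not computed. Averaged over untreated and treated cells, the ratio differed from NONT by −0.95 on the log2 scale with the EXOSC5 guide and by 0.21 with the NUP93 guide. With genotype permuted within treatment there are 36 arrangements, and the EXOSC5-KO value had the smallest two-sided p they can give, 0.0556 in the exact test, which is 0.133 adjusted over 12 ratios and knockouts. These 12 tests were chosen after the values were seen. In EXOSC5-KO the same exact p held for BCL2L12 to PTBP1 (−0.42), BCL2L12 to PTBP3 (−0.59) and PTBP2 to PTBP1 (0.53). In NUP93-KO it held for BCL2L12 to PTBP3 (0.21).

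BCL2L12 lies on chromosome 19, as EXOSC5 does, 8.27 Mb beyond the cut gene. The 363 tested genes of chromosome 19 beyond EXOSC5 had a median EXOSC5-KO minus NONT difference of 0.097 in untreated cells, beside 0.032 for the 587 others of that chromosome and 0.071 for all tested genes. Within 1 Mb of BCL2L12 the median of 62 genes was −0.0075, and 50% of them lay below 0 beside 40.5% of all tested genes. The neighbours of BCL2L12 had differences of −0.029 for SCAF1, −0.098 for PRMT1 and 0.061 for IRF3. The part of the cut chromosome in the level of BCL2L12 was not tested. IRF3 (chr19:49659569-49665875, minus strand) overlaps the start of BCL2L12 on the opposite strand, and counting used strand.

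Under triptolide and on the spike-in scale, both knockouts held more of most mRNAs than NONT. BCL2L12 was 0.66 ± 0.22 higher in NUP93-KO than in NONT on the log2 scale (SE; limma, adjusted p = 0.0264), and PTBP2 was 0.92 ± 0.26 higher in EXOSC5-KO cells (SE; limma, adjusted p = 0.0153). The other differences in NUP93-KO cells were 0.36 for PTBP1, 0.51 for PTBP2 and 0.36 for PTBP3, and none of those passed (limma, adjusted p = 0.163, 0.115 and 0.179). In EXOSC5-KO they were 0.47 for PTBP1, 0.49 for PTBP3 and 0.14 for BCL2L12 (limma, adjusted p = 0.0835, 0.0811 and 0.610). So 1 of 4 was called higher in each knockout, beside 41.9% of tested genes in NUP93-KO cells and 39.2% in EXOSC5-KO cells. Both knockout libraries lay above both NONT libraries for 4 of 4 genes in NUP93-KO cells and for 3 of 4 in EXOSC5-KO cells, where 75.6% and 75.1% of tested genes did so; BCL2L12 in EXOSC5-KO cells overlapped. The median over all tested genes was 0.66 and 0.65, and the median of the 4 genes was 0.44 and 0.48. PTBP2 in EXOSC5-KO cells lay above the median of its contrast, BCL2L12 in NUP93-KO cells lay at it, and the other differences lay below.

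These calls rested on few libraries. The BCL2L12 call in NUP93-KO cells was lost without treated NONT replicate 2 (0.48, limma, adjusted p = 0.215), treated NUP93-KO replicate 1 (0.68, 0.0884) or replicate 2 (0.64, 0.129), and without the intensity trend in the fit (adjusted p = 0.0537). The PTBP2 call in EXOSC5-KO cells was lost without treated NONT replicate 2 (0.94, limma, adjusted p = 0.0754) or treated EXOSC5-KO replicate 1 (0.93, 0.0719) or replicate 2 (0.90, 0.0804). The number called rose to 3 of 4 in each knockout when either untreated NONT library was left out.

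Both calls also ended on each of the 3 other scales. BCL2L12 in NUP93-KO cells was at −0.013 by the median of ratios, 0.0054 with equal totals and 0.067 with equal mitochondrial mRNA (limma, adjusted p = 0.966, 0.988 and 0.929). PTBP2 in EXOSC5-KO cells was at 0.25, 0.35 and 0.090 (adjusted p = 0.367, 0.205 and 0.839). BCL2L12 in EXOSC5-KO cells instead passed as lower than NONT on these scales, at −0.53, −0.43 and −0.69 (limma, adjusted p = 0.0118, 0.0328 and 0.0435). PTBP1 in NUP93-KO cells passed as lower on the first 2 of them, at −0.31 and −0.29 (adjusted p = 0.0211 and 0.0248). By the median of ratios the genes called over the whole table were 483 higher and 367 lower in NUP93-KO cells and 920 higher and 1069 lower in EXOSC5-KO cells. With equal totals they were 517 higher and 331 lower, then 1231 higher and 585 lower. With equal mitochondrial mRNA they were 127 higher and 22 lower, then 227 higher and 536 lower.

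The size of the triptolide response was also compared between genotypes directly. Against NONT, the response in NUP93-KO cells was smaller by 0.58 ± 0.30 for PTBP1, 0.92 ± 0.37 for PTBP2, 0.60 ± 0.31 for PTBP3 and 0.78 ± 0.31 for BCL2L12 on the log2 scale (SE; limma, adjusted p = 0.147, 0.0897, 0.146 and 0.0857). In EXOSC5-KO it was smaller by 0.57 ± 0.30, 0.41 ± 0.37, 0.28 ± 0.31 and 0.74 ± 0.31 in the same order (SE; limma, adjusted p = 0.238, 0.433, 0.526 and 0.193). In either knockout 0 of 4 passed, and 0.760% of tested genes in NUP93-KO cells and 0.319% in EXOSC5-KO cells passed as having lost less than NONT. At an unadjusted p under 0.05, PTBP2 and BCL2L12 passed in NUP93-KO cells and BCL2L12 in EXOSC5-KO cells, or 2 and 1 of 4, where 41.3% and 23.1% of tested genes did. On the spike-in scale the direction was the same for 4 of 4 genes in both knockouts, beside a median of 0.74 and 0.57 over all tested genes. By the median of ratios these medians were 0.0044 and 0.019, and the difference was negative for PTBP1 (−0.17) and PTBP3 (−0.15) in NUP93-KO cells and for PTBP1 (−0.0058), PTBP2 (−0.16) and PTBP3 (−0.29) in EXOSC5-KO cells.

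Untreated NONT replicate 1, whose gene total was 11.3 M beside 16.4 M in replicate 2, decided this comparison. Without it the responses differed by 0.93 for PTBP1, 1.24 for PTBP2, 0.81 for PTBP3 and 0.98 for BCL2L12 in NUP93-KO cells and 4 of 4 passed (limma, adjusted p = 0.00416, 0.00672, 0.0284 and 0.0124). In EXOSC5-KO without that library 2 of 4 passed, PTBP1 at 0.92 and BCL2L12 at 0.93 (limma, adjusted p = 0.0144 and 0.0227). The call moved for tested genes at large in the same way, to 7040 genes in the NUP93 knockout and 5280 in the EXOSC5 knockout from 105 and 44. Without untreated NONT replicate 2 instead, 0 genes passed as having lost less than NONT in either knockout (limma, with 3199 and 1364 at an unadjusted p under 0.05), and the differences of the 4 genes lay between 0.23 and 0.60 in the NUP93 knockout. Which of the untreated NONT libraries is nearer to the true level was not tested.

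**Figure D5:**
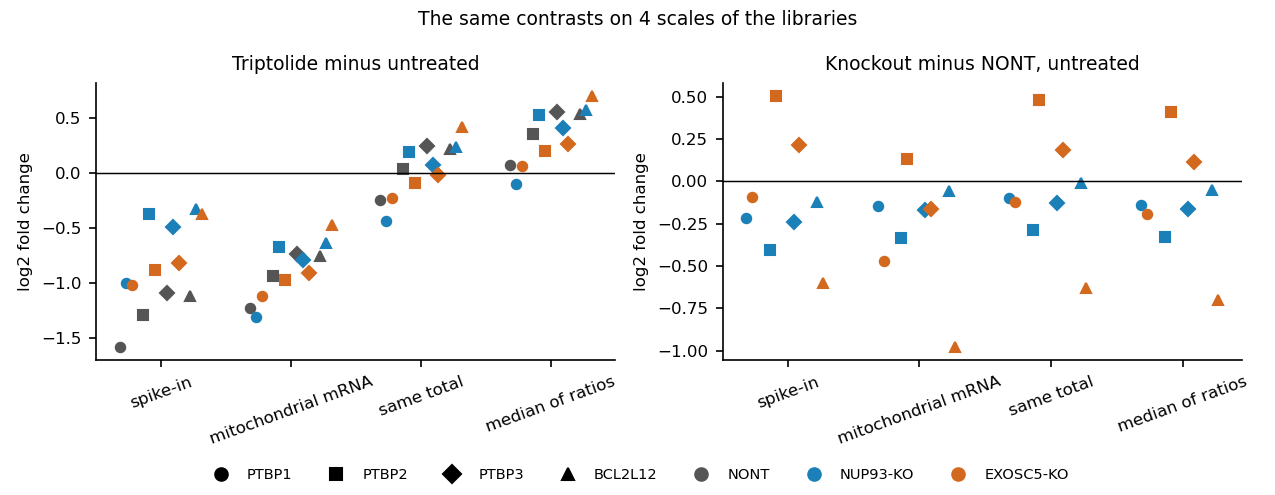
Log2 fold changes of the 4 genes (marker shape) by genotype (colour) on 4 scales of the libraries, for triptolide against untreated (left) and knockout against NONT without drug (right). Responses on the left lie below 0 on the spike-in and mitochondrial scales. With equal totals PTBP1 stays below 0 (−0.24, −0.43 and −0.22 for the NONT, NUP93 and EXOSC5 guides) and the others lie from −0.088 to 0.42, and by the median of ratios all but PTBP1 in NUP93-KO cells (−0.097) lie above 0, while BCL2L12 in EXOSC5-KO cells lies lowest on the right on each scale (−0.60, −0.98, −0.63 and −0.70).

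Per kilobase of the canonical transcript, the level in untreated cells was 2028 to 3311 for PTBP1, 396 to 725 for BCL2L12, 56.0 to 116 for PTBP2 and 75.3 to 111 for PTBP3. PTBP1 stood above BCL2L12, and both above PTBP2 and PTBP3, without overlap. PTBP2 and PTBP3 overlapped and were not ordered. After triptolide the ranges were 774 to 1210 for PTBP1, 259 to 471 for BCL2L12, 30.1 to 58.7 for PTBP2 and 37.1 to 62.9 for PTBP3, and the order was the same.

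The 3 paralogs share no run of 31 bases with each other in the annotated transcripts, the word length by which kallisto usually assigns reads, so no such word could place a read of 1 paralog with another. BCL2L12 shares 5.20% of its 3037 such words with other genes, all with the copy BCL2L12P1, and PTBP1 shares 2.52%, of which the pseudogene PTBP1P holds the most. The share was 2.16% for PTBP2 and 0.36% for PTBP3. For BCL2L12, PTBP1 and PTBP2 a small part of the value is uncertain for this reason. The shared words of PTBP2 occur in 2952 other genes, beside 130 for PTBP1.

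AU-rich elements in 3′ UTRs, built on the pentamer ATTTA, are a known feature of short-lived mRNAs, so the pentamer was counted on the sense strand of the canonical 3′ UTR. PTBP1 had 2, PTBP2 had 5, PTBP3 had 15 and BCL2L12 had 0, and MCL1 had 10. A window of 30 bases with the most matches is shown for each gene that has any, with ATTTA in capitals:
PTBP1: taatcttttttcATTTAtatgcaaaagaaa
PTBP2: ttgctattgtgcATTTActagaaaaaagga
PTBP3: tacttttaaaaaATTTAaacacagacttct
MCL1: catttgacctaATTTAactggtgaaATTTA
Counted from the first base of the 3′ UTR, the windows span 670 to 699 in PTBP1, 324 to 353 in PTBP2, 364 to 393 in PTBP3 and 1124 to 1153 in MCL1. Of 12799 tested genes with a 3′ UTR of at least 50 bases, 75% hold at least 1 ATTTA, and the median density is 1.78 per kb. The density was 1.35 per kb in PTBP1, denser than 41.9% of those genes, 3.04 in PTBP2 (72.2%), 2.77 in PTBP3 (67.9%) and 3.55 in MCL1 (79.2%). It was 0 in BCL2L12, whose 3′ UTR has 168 bases. A relation of this density to the mRNA left was not tested. A match is a description of the sequence and not a site in use.

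The related RNA-binding genes give the setting of the PTBP group. In a list of 27 hnRNP genes and known partners of PTB proteins, 27 passed as lower in NONT, 12 in NUP93-KO cells and 21 in EXOSC5-KO cells, beside 90.0%, 55.1% and 64.3% of all tested genes, with median log2 fold changes of −1.31, −0.52 and −0.69. These medians lie nearer to 0 than those of all tested genes. The deepest drop in NONT was that of PCBP1, a poly(C)-binding protein, from 5636 and 8379 to 971 and 822, or −2.94 on the log2 scale. The smallest was that of HNRNPA2B1, a splicing and transport protein, from 9636 and 15187 to 8090 and 5333, or −0.88. PTBP1, PTBP2 and PTBP3 lay between them in NONT. The partners RAVER1 and MATR3, both known to bind PTBP1, changed by −1.62 and −1.11 in NONT (limma, adjusted p = 1.63e-06 and 0.000122). MATR3 has a pair of identifiers in the table, and the more abundant was used.

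BCL2L12 can be set beside 26 genes of the mitochondrial route of apoptosis, of which 25 were tested and BCL2L14 was too low. In NONT 24 passed as lower, in NUP93-KO cells 20 and in EXOSC5-KO cells 22, beside 90.0%, 55.1% and 64.3% of all tested genes. The median log2 fold changes were −2.56, −1.91 and −1.84, beside −1.62, −0.92 and −1.08 over all tested genes. BCL2L12, at −1.11, −0.33 and −0.37, fell by less than the middle of that list in NONT and was not called in the knockouts on the spike-in scale. BBC3, the BH3-only protein PUMA, had the deepest drop in NONT, from 262 and 331 to 1.08 and 0.865 (−7.23), and BIK had the smallest, from 11.4 and 14.1 to 7.21 and 5.84 (−0.87). As having lost less with the NUP93 guide than in NONT, 1 of the 25 passed, beside 0.760% of tested genes, and the list's median was 0.69 beside 0.74. That gene was BAX, which forms pores in the mitochondrial outer membrane (difference 1.42, limma, adjusted p = 0.0497). Its call ended on each of the 3 other scales (0.67 by the median of ratios, 0.65 with equal totals and 0.76 with equal mitochondrial mRNA, adjusted p = 0.282, 0.316 and 0.845), without trend (0.135), without a low-value filter (0.101), with a pseudocount of 0.1 (0.0627) and without any single library other than untreated or treated NONT replicate 1 (1.19 and 0.161 without untreated NONT replicate 2).

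Of 5 further genes that the study discussed around the polymerase, the drug and nuclear transport, 4 passed as lower in each genotype, with medians of −1.85 in NONT, −1.14 in NUP93-KO cells and −1.38 in EXOSC5-KO cells beside the shares and medians of all tested genes given for the apoptosis list. KPNB1, an importin, had the smallest drop (−1.46 in NONT), and the exportin XPO1 and RANGAP1 changed by −1.85 and −1.80. CDK7, the kinase of TFIIH, changed by −5.68 in NONT, −1.79 in NUP93-KO cells and −4.12 in EXOSC5-KO cells, and the NUP93-KO response differed from that in NONT by 3.89 (limma, adjusted p = 0.0271). This call too ended on the 3 other scales (3.24, 3.21 and 3.29 in the same order, adjusted p = 0.166, 0.184 and 0.105), without trend (0.128), without a low-value filter (0.0916), and without untreated NONT replicate 2 (3.28, 0.139) or untreated NUP93-KO replicate 2 (3.36, 0.0555). POLR2A, the largest polymerase subunit, had −2.34 ± 1.56 (SE) in NONT and did not pass in any genotype, with a spread between libraries too wide for a statement.

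Across the 12 libraries, log2 values relative to the library median described which genes followed each of the 4, among 10377 tested genes with an untreated mean of at least 100. These points share the drug, so high values of Pearson's r are general, and they are given as a description. PTBP1 was most like AARS1 (r = 0.985), ACTG1 (0.983) and KPNB1 (0.982), which changed by −1.64, −1.04 and −1.46 in NONT. Genes most like PTBP2 included PCID2 (0.974) and CCNL2 (0.967), and PTBP3 was most like STMP1 (0.987), CHMP4A (0.986) and DYSF (0.985). BCL2L12 was most like E2F1 (0.992), IDH2 (0.988) and UQCRC2 (0.987). Among the 4, the closest pair was PTBP1 with PTBP3 (0.922) and the least close was PTBP2 with BCL2L12 (0.548), the pair whose ratio set EXOSC5-KO apart.

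The nearest protein-coding genes did not follow the 4 closely in every case. MISP, next to PTBP1, changed by −4.02 in NONT, while PLPPR3 on its other side was too low to test. TLCD4-RWDD3 and DPYD, beside PTBP2, changed by −1.21 and −0.70, and SUSD1 and HSDL2, beside PTBP3, by −0.77 and −1.05. Around BCL2L12, SCAF1 changed by −1.87, PRMT1 by −1.04 and IRF3 by −1.44 in NONT.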

How the data were processed

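Polyadenylated RNA of 12 U2OS libraries was analysed in the groups and replicates that the sample labels give. The authors counted cells, added ERCC RNAs at lysis, made directional libraries, pseudoaligned reads with kallisto 0.46.1 to Ensembl GRCh38 transcripts (strand-specific), summed them per gene with tximport and divided by DESeq2 size factors from the ERCC transcripts. The deposited values are therefore a normalised signal, not counts. Whole reads were not recovered (24.7% to 33.0% of low values were whole within 0.05 of a read), so no count model was used.

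Values were analysed as log2(value + 1), so fold changes of low genes are understated. Genes with an untreated mean of at least 10 (13811 of 22379) were fitted with limma 3.58.1 (R 4.3.3) with an intensity trend over 6 group means, with Benjamini-Hochberg adjustment over all tested genes and a threshold of 0.05. Exact permutation tests served single values. The fit was tested on simulated data. Symbols and positions came from GENCODE on GRCh38 (19584 identifiers matched, 2795 did not). Named genes were the 4, the targeted genes, MCL1, the 3 most alike, neighbours, and the largest and smallest response of each list; the BCL2L12 to PTBP2 ratio, BAX, RAVER1, MATR3, XPO1, RANGAP1 and POLR2A were chosen after their values were seen. Some items that the rule names are not reported here. The genes and lists were chosen with earlier results of these data known. Alternatives were 3 other scales, pseudocounts, filters, no trend, a replicate block and each library left out.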

Additional observations from a re-analysis of the deposited data

How the results depend on the processing

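The scale of the libraries decided most signs. Scaled by the median of ratios, triptolide minus untreated on the log2 scale became 0.072 for PTBP1, 0.35 for PTBP2, 0.56 for PTBP3 and 0.54 for BCL2L12 in NONT, 0.53 for PTBP2, 0.41 for PTBP3 and 0.57 for BCL2L12 with the NUP93 guide, and 0.066, 0.20, 0.27 and 0.71 for the 4 in that order with the EXOSC5 guide. With equal totals it became 0.043, 0.25 and 0.22 for PTBP2, PTBP3 and BCL2L12 in NONT, 0.19, 0.080 and 0.24 with the NUP93 guide, and 0.42 for BCL2L12 with the EXOSC5 guide. Genes called lower then numbered 0 in each genotype by the median of ratios, and 1, PTBP1, in each genotype with equal totals. Its adjusted p with equal totals was 0.00827 in NONT, 0.000217 with the NUP93 guide and 0.0136 with the EXOSC5 guide (limma). By the median of ratios PTBP3 and BCL2L12 were called higher in each genotype, and PTBP2 with the NUP93 guide (limma, adjusted p from 0.000328 to 0.0445). With equal totals BCL2L12 was called higher with the EXOSC5 guide (limma, adjusted p = 0.0101). With equal mitochondrial mRNA all 4 were called lower in each genotype. Of 13811 tested genes, 11216 in NONT, 10568 with the NUP93 guide and 10378 with the EXOSC5 guide were called lower on that scale. Over the genotypes the response was 0.014, 0.36, 0.41 and 0.61 by the median of ratios and 0.050, 0.10 and 0.30 for PTBP2, PTBP3 and BCL2L12 with equal totals (exact permutation, adjusted p from 0.0106 to 0.731).

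Knockout minus NONT under triptolide turned negative as well. By the median of ratios it was −0.31, −0.16, −0.31 and −0.013 for the 4 with the NUP93 guide and −0.20 for PTBP1, −0.17 for PTBP3 and −0.53 for BCL2L12 with the EXOSC5 guide. With equal totals it was −0.29, −0.14 and −0.29 for the PTBP genes with the NUP93 guide and −0.10, −0.080 and −0.43 for PTBP1, PTBP3 and BCL2L12 with the EXOSC5 guide. With equal mitochondrial mRNA these were −0.23, −0.078 and −0.23, then −0.36, −0.34 and −0.69. On these 3 scales 0 of the 4 were called higher in either knockout, and 0 with the NUP93 guide without trend. Without drug, 1 gene (BCL2L12) was called with the EXOSC5 guide on each of them, and PTBP3 was at −0.16 with equal mitochondrial mRNA. Differences in response turned to −0.17 for PTBP1 and −0.15 for PTBP3 with the NUP93 guide and −0.0058, −0.16 and −0.29 for the PTBP genes with the EXOSC5 guide by the median of ratios. With equal totals they were −0.19 and −0.17, then −0.13 for PTBP2 and −0.27 for PTBP3, and with equal mitochondrial mRNA −0.083 and −0.059, then −0.041 and −0.18. Errors of the cell count and of the spike-in volume were not tested.

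Over all tested genes, those lower and higher under triptolide numbered 12427 and 7 in NONT, 7603 and 19 with the NUP93 guide, and 8884 and 11 with the EXOSC5 guide. By the median of ratios they numbered 4185 and 3752, 4101 and 3681, and 3964 and 3612, and with equal totals 5270 and 2105, 5430 and 1922, and 5078 and 2027. Genes called in untreated NUP93-KO cells went from 3 to 126 and 134 on these scales. Genes higher under triptolide went from 5788 to 483, 517 and 127 (median of ratios, equal totals, equal mitochondrial mRNA) with the NUP93 guide, and to 3727 without trend, and from 5417 to 920, 1231 and 227 with the EXOSC5 guide. Genes that lost less than NONT went from 105 to between 0 (limma without trend, 4550 at an unadjusted p under 0.05) and 1051 (untreated mean of at least 50) with the NUP93 guide and from 44 to between 2 (equal mitochondrial mRNA) and 77 (untreated mean of at least 50) with the EXOSC5 guide.

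Leaving out single libraries, genes called in the triptolide response numbered 4 to 4 in NONT, 1 to 2 with the NUP93 guide and 2 to 3 with the EXOSC5 guide. Higher calls under triptolide ranged from 0 to 3 in each knockout, and calls for the difference in response from 0 to 4 with the NUP93 guide and 0 to 2 with the EXOSC5 guide. The log2 ratio to PTBP1 ranged from 0.54 to 0.65 for BCL2L12, 0.28 to 0.42 for PTBP2 and 0.35 to 0.45 for PTBP3. Without untreated NONT replicate 2, the untreated differences from NONT reversed to 0.26 for PTBP1 with the EXOSC5 guide (range −0.45 to 0.26) and to 0.14 for PTBP1 (−0.57 to 0.14) and 0.067 for BCL2L12 (−0.31 to 0.067) with the NUP93 guide. Under triptolide BCL2L12 with the EXOSC5 guide reversed to −0.042 without treated NONT replicate 2 (range −0.042 to 0.32) and to −0.0086 without treated EXOSC5-KO replicate 2.

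The replicate numbers did not pair the samples (correlation of deviations −0.051 to 0.037 over 15 pairs, 0 over 0.1), and a fit with the replicate block gave the same call for 36 of 36 contrasts of the 4 genes, while the BAX difference in response with the NUP93 guide was lost (limma, adjusted p = 0.0664).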
